A study of Mus musculus with 16 samples.

Results

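The transcripts described here are the targets of the transcription factor ATF4 and the cytosolic aminoacyl-tRNA synthetases in sorted mouse T cells, read across 6 groups of arrays. They comprise 25 genes named as ATF4 regulators or targets, together with every synthetase gene whose symbol on the array is a capital letter followed by "ars" (with or without a closing digit) or is Eprs. Each gene was read from the probe set that names it alone and has the highest mean over the 16 arrays. Of 17097 genes measured in this way 38 are members, made up of 23 of the 25 named genes and 15 synthetases. Mthfd2 lies only on probe sets that name a further gene, and Pycr1, Cars, Dars and Tars were not analysed here. The members were taken by role: 5 transcription factors, 6 feedback and stress genes, 7 enzymes of serine synthesis and one-carbon metabolism, 5 other amino acid enzymes and the 15 synthetases.

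The groups were unstimulated Tsc1-deficient CD8 cells and unstimulated wild-type CD8 cells (2 arrays each), Tsc1-deficient and wild-type CD4 cells stimulated for 4 h through CD3 and CD28 by antibodies fixed to the plate (3 arrays each), and unstimulated Tsc1-deficient and wild-type CD4 cells (3 arrays each). All were naive cells on the C57BL\6 background. Their treatment text mentions a HIF1a-deficient strain once, whereas the genotype fields and titles give Tsc1, which was followed. How Tsc1 was removed, in which cells, and the age and number of the mice are not stated in the labels. Nothing in the labels ties the arrays of a group to separate mice. P-values therefore reflect variation among arrays, which may be technical.

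ATF4 is a basic leucine zipper protein whose messenger is held back from translation until the initiation factor eIF2 is phosphorylated under amino acid or endoplasmic reticulum stress, and whose synthesis is also raised by the growth-promoting kinase complex mTORC1. It pairs with C/EBP proteins on a composite DNA element and switches on enzymes that make serine and asparagine, synthetases that load amino acids onto transfer RNA, and feedback genes that end the response. T cells draw on serine and one-carbon units for nucleotide synthesis when they begin to divide. Tsc1 is a subunit of the complex that restrains mTORC1.

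Signals are log2 values, and changes are differences of group means on that scale, given ± their standard error. A gene was called at a Benjamini-Hochberg adjusted p under 0.05 over all 17097 genes in limma's moderated test on 16 arrays. Tsc1 itself was lower in deficient cells, with a mean of 6.39 against 7.46 in wild-type cells at 4 h (-1.06 ± 0.10, limma adjusted p = 4.63e-06), 6.49 against 7.31 in unstimulated CD4 cells (-0.83 ± 0.10, adjusted p = 3.77e-05) and 6.38 against 6.94 in CD8 cells (-0.55 ± 0.12, adjusted p = 0.00892). Replicate arrays correlated at 0.992 to 0.997. T cell markers averaged 9.6 to 11.7 on every array, and the CD4 and CD8 lineage markers followed the labels, with CD8 lineage means of 10.72 to 10.85 on CD8 arrays and 5.84 to 7.96 on CD4 arrays. Of the 4 naive cell markers only Lef1 was measured. In bulk cells, fewer cells of a type and less RNA per cell cannot be told apart.

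Markers of other cell types also differed with genotype. Lists for B cells, neutrophils, monocytes, macrophages and dendritic cells, NK cells, regulatory T cells and erythroid cells were read on the same arrays, and the markers called are given with each genotype comparison. Of 8 neutrophil genes only 1, Elane, had a mean below the table median in each deficient group. In the wild-type groups 5 had such a mean in CD4 cells at either time and 4 in CD8 cells. The part of these markers in the results on ATF4 targets was not tested.

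The letters of the composite element, TGATGNAA or TTNCATCA on the other strand, were searched in RefSeq promoter windows of GRCm38.p6 that run from 250 bases before to 50 bases after the start. Of 27025 mouse genes with a window, 1219 (4.51%) held a match. Of 31 members with a window 10 did (32.3%). Matches lay in 5 of 6 feedback and stress genes (Chac1, Herpud1, Nupr1, Trib3 and Vldlr), in 4 of 9 synthetases (Aars, Gars, Iars and Yars) and in 1 of 4 other amino acid enzymes (Asns). None lay in the 5 transcription factors or in the 7 serine and one-carbon enzymes, which in this window says only that these letters are not there. The genes were gathered as known ATF4 targets, so a share above that of all genes is a description of the list. Of the 10 members called between genotypes at 4 h, 9 have a window and 3 hold a match. The windows of these 3 follow with the match in capitals, and after them those of the serine synthesis genes Psph and Phgdh, whose 4 h changes were among the 3 largest of the members and whose windows hold none. The windows are chr2:152344011-152344310 (minus strand, Trib3), chr6:7693160-7693459 (minus, Asns), chr8:111033592-111033891 (plus, Aars), chr5:129787204-129787503 (minus, Psph) and chr3:98339920-98340219 (minus, Phgdh), each read 5′ to 3′ along the gene.
Trib3: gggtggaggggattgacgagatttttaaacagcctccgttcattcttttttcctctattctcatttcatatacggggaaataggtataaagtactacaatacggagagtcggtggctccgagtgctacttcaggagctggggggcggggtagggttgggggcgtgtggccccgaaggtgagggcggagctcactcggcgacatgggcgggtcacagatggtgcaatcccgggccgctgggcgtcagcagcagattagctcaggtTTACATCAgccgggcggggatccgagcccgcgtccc
Asns: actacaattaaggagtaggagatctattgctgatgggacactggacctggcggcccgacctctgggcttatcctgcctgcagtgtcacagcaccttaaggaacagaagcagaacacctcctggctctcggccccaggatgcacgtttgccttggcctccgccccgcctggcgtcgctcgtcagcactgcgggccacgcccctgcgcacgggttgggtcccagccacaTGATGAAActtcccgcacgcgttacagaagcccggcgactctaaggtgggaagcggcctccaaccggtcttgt
Aars: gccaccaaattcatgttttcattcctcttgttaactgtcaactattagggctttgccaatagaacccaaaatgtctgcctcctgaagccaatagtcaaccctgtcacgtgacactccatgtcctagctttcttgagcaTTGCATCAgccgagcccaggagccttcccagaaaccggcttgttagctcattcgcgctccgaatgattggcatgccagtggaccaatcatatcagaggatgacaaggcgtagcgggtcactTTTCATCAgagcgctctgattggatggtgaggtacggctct
Psph: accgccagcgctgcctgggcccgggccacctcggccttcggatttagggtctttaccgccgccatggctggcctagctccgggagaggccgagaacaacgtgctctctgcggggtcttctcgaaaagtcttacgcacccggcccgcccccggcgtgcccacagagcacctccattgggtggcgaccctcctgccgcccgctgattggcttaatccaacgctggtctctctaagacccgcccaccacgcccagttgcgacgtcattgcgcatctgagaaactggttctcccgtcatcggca
Phgdh: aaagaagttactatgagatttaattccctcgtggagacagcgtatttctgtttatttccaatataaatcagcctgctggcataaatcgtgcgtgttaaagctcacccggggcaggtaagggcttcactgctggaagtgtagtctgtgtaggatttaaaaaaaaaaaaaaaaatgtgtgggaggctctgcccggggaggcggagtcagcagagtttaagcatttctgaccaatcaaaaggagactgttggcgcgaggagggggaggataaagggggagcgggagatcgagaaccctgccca
The match begins at base 265 of the window in Trib3 and at base 228 in Asns. Aars holds a pair, at bases 139 and 260.

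Levels set what the arrays could show. Of the 38 members 31 lay above the table median of 3.36 on every array, among them all 5 transcription factors, all 7 serine and one-carbon enzymes and all 15 synthetases. Signals of different probe sets cannot be ranked against each other, so each gene is compared with itself across groups. The 7 dim members were Chac1, a glutathione-degrading enzyme, the stress-induced nuclear protein Nupr1, the lipoprotein receptor Vldlr, asparagine synthetase Asns, Cbs and Cth of the route from homocysteine to cysteine, and the alanine transaminase Gpt2. Of these 5 lay below the median on all arrays, where a change could have gone undetected, and Chac1 and Asns reached it on some arrays.

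**Figure D1:**
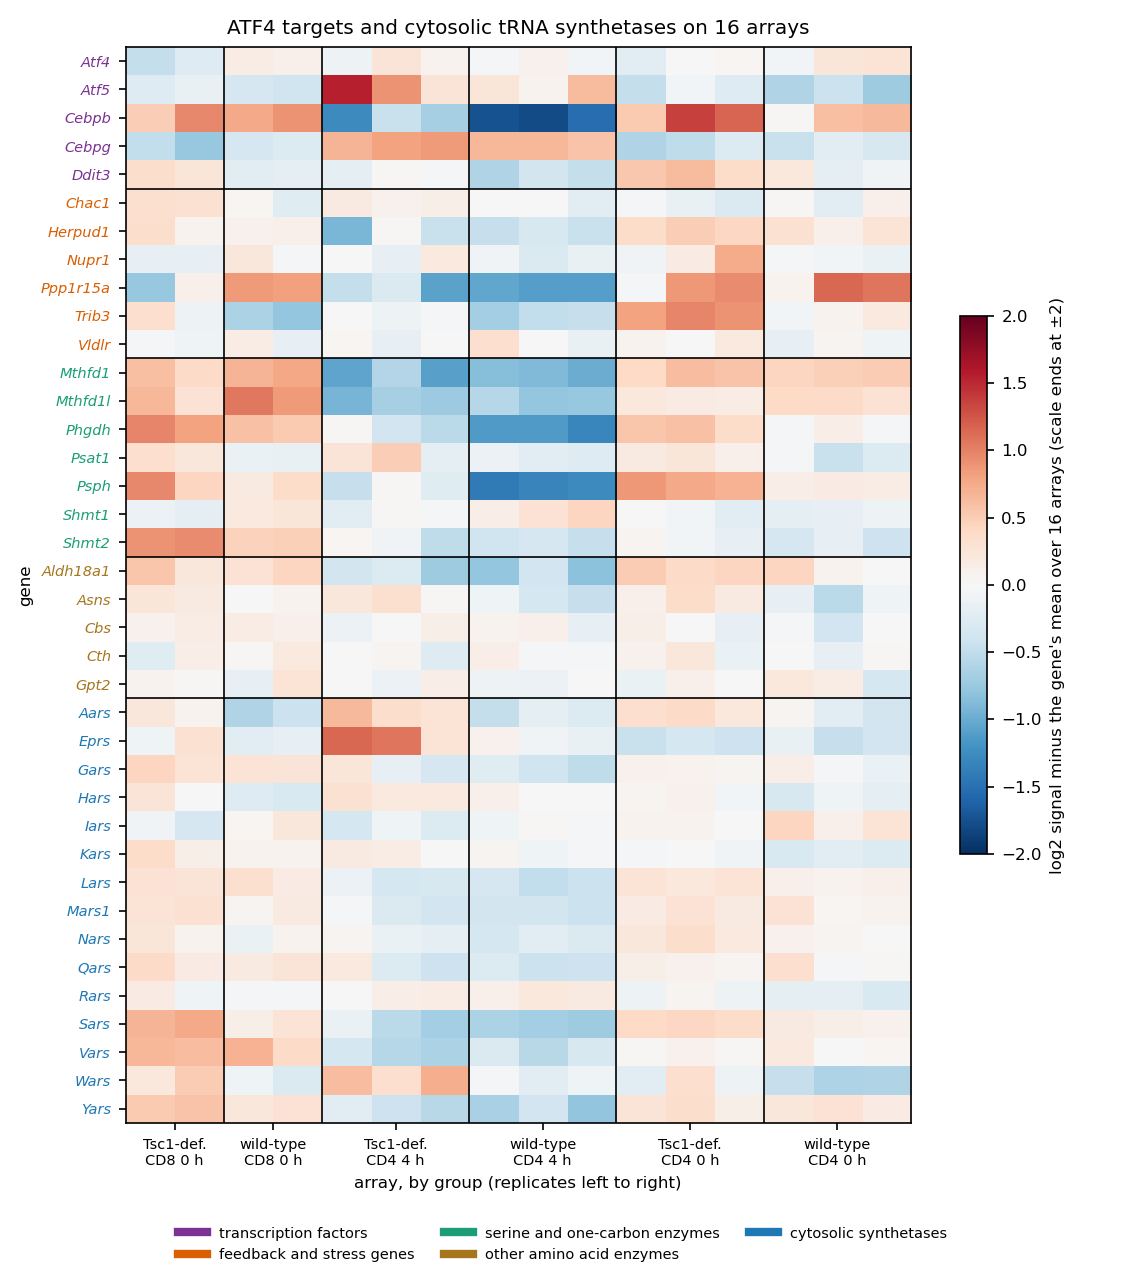
Log2 signal of the 38 members (rows, coloured by role) on 16 arrays (columns, by group), each shown as its difference from the gene's own mean (colour bar, ±2). Cebpb and Mthfd1 are bluest on the 4 h arrays, and Ppp1r15a lies below its mean on all of them. Phgdh and Psph are bluest on the wild-type 4 h arrays. Trib3 is reddest on the unstimulated Tsc1-deficient CD4 arrays, and Eprs on 4 h Tsc1-deficient arrays 1 and 2.

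At 4 h of stimulation, deficient CD4 cells held more transcript of the serine synthesis enzymes Psph and Phgdh, of Trib3, Ddit3, Cebpb and Asns, and of 3 synthetases than wild-type CD4 cells. Of the 38 members 9 were called higher and 1 lower, against 5.59% higher and 3.86% lower over all 17097 genes (9.45% called in all). Among the 9354 genes whose mean exceeds the table median, 16.2% were called. The median change of the members was 0.20, and of all genes -0.001. The higher genes were Ddit3 and Cebpb (2 of 5 transcription factors), Trib3 (1 of 6 feedback and stress genes), Psph and Phgdh (2 of 7 serine and one-carbon enzymes), Asns (1 of 5 other amino acid enzymes) and Eprs, Aars and Wars (3 of 15 synthetases). The lower gene was Shmt1. On the same arrays the mean of 8 neutrophil genes was 4.58 to 6.08 in deficient cells against 3.21 to 3.69 in wild-type cells, with 4 of 8 called higher (S100a8, S100a9, Ngp and Camp). Of the other marker lists, Lyz2 (1.18) and Mpeg1 (0.83) were higher among 6 monocyte, macrophage and dendritic cell genes, Gzma (1.61) among 4 NK cell genes and Il2ra (0.69) and Ikzf2 (0.73) among 4 regulatory T cell genes. Array means were 3.63 to 3.98 in deficient cells against 3.39 to 3.52 in wild-type cells for the monocyte list, 3.14 to 3.68 against 2.83 to 3.17 for the NK list and 5.99 to 6.14 against 5.54 to 5.67 for the regulatory T cell list. Of the T cell genes Thy1 was higher (0.91) and Cd3g lower (-0.83), and the naive cell gene Lef1 was lower (-0.83).

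Psph, the phosphatase of the last step of serine synthesis, read 6.92, 7.41 and 7.14 on the deficient arrays at 4 h and 5.96, 6.06 and 6.11 on the wild-type arrays. Every deficient array lay above every wild-type array, and the change of 1.11 ± 0.14 (2.16-fold, limma adjusted p = 6.46e-05) was the only one of the 38 to exceed 1. Phgdh, the first enzyme of that route, read 7.13, 6.73 and 6.57 in deficient cells and 5.97, 5.97 and 5.80 in wild-type cells, again without overlap (0.90 ± 0.12, 1.86-fold, adjusted p = 0.000203). Its second probe set moved by 1.00 (adjusted p = 0.000104 over all probe sets). Psat1, the transaminase between them, had a change of 0.39 ± 0.14 and an adjusted p of 0.103. Shmt1, the cytosolic serine hydroxymethyltransferase, went the other way, with 5.97, 6.22 and 6.16 in deficient cells against 6.32, 6.49 and 6.62 in wild-type cells (-0.36 ± 0.10, adjusted p = 0.0323). Its arrays did not overlap, but the call was lost without wild-type array 2 or 3 or deficient array 1 (adjusted p = 0.094 to 0.156), and its other 3 probe sets were not called (-0.43 to -0.15). Mitochondrial Shmt2 (0.22), Mthfd1 (-0.0002) and Mthfd1l (-0.08), which interconvert folate-bound one-carbon units, were not called.

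Among the stress factors, Trib3, a pseudokinase that ATF4 induces and that restrains ATF4, read 4.61, 4.51 and 4.59 in deficient cells and 3.93, 4.12 and 4.15 in wild-type cells at 4 h (0.50 ± 0.11, adjusted p = 0.0101). Ddit3, which encodes the factor CHOP, read 7.59, 7.81 and 7.76 against 7.18, 7.41 and 7.31 (0.42 ± 0.11, adjusted p = 0.0276). For both genes the lowest deficient array lay above the highest wild-type array. Cebpb, a C/EBP factor that is also abundant in myeloid cells, read 6.37, 7.20 and 6.98 in deficient cells and 5.89, 5.84 and 6.12 in wild-type cells (0.90 ± 0.23, adjusted p = 0.0202). Those arrays did not overlap either, yet the call ended when the 3 Cebpb probe sets were averaged (0.45, adjusted p = 0.171). Leaving out 1 array ended the call of Cebpb in 4 cases (wild-type array 1 or 2, deficient array 2 or 3, adjusted p = 0.0598 to 0.0907), of Ddit3 in 4 (wild-type array 1 or 3, deficient array 2 or 3, adjusted p = 0.0681 to 0.119) and of Trib3 in 1 (wild-type array 1, adjusted p = 0.0565). The other stress genes were not called: Ppp1r15a, a phosphatase subunit that reverses eIF2 phosphorylation, changed by 0.47 ± 0.30, Herpud1 of endoplasmic reticulum protein disposal by -0.03, and Chac1, Nupr1 and Vldlr by -0.11 to 0.20.

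Atf4 itself was not called between genotypes at any point. It read 10.05, 10.39 and 10.21 on the deficient arrays and 10.10, 10.23 and 10.09 on the wild-type arrays at 4 h, so the groups overlapped (0.08, interval at the 95% level -0.17 to 0.33, adjusted p = 0.802). In unstimulated CD4 cells the change was -0.22 ± 0.12 (adjusted p = 0.355). In CD8 cells both deficient arrays (9.66 and 9.89) lay below both wild-type arrays (10.29 and 10.24), and the change of -0.49 ± 0.14 narrowly missed the threshold (adjusted p = 0.0564). These are transcript levels; the array does not measure ATF4 protein. Atf5, a close relative of ATF4, and Cebpg, a partner of it, were not called in any of the genotype comparisons either, with changes of 0.17 to 0.60 for Atf5 and -0.32 to 0.14 for Cebpg.

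Of the 15 synthetases 3 were called between genotypes at 4 h, while most had a positive change. Aars, which charges alanine transfer RNA, read 8.74, 8.43 and 8.35 in deficient cells against 7.61, 7.90 and 7.82 in wild-type cells at 4 h (0.73 ± 0.13, 1.66-fold, adjusted p = 0.00127), with no overlap. Wars, for tryptophan, read 7.01, 6.73 and 7.12 against 6.35, 6.17 and 6.30 (0.68 ± 0.14, adjusted p = 0.00473), also with no overlap, and all 3 of its probe sets were called. Eprs, the joint enzyme for glutamate and proline, read 9.74, 9.66 and 8.86 in deficient cells and 8.68, 8.52 and 8.44 in wild-type cells (0.87 ± 0.18, 1.83-fold, adjusted p = 0.00456). Deficient array 3 was much closer to the wild-type arrays than the other deficient arrays were. Eprs passed on 3 of its 4 probe sets (0.87 to 0.97), and the fourth, the dimmest, changed by 0.10 (adjusted p = 0.845). The other 12 synthetases had changes between -0.20 (Iars, for isoleucine) and 0.30 (Gars, for glycine), and none was called. Over all 15 the change was positive in 12 at 4 h, 11 in unstimulated CD4 cells and 14 in CD8 cells. Of all 17097 genes it was positive in 8519, 8976 and 8369.

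Asns, which makes asparagine, read 3.38, 3.48 and 3.17 in deficient cells and 3.06, 2.81 and 2.69 in wild-type cells at 4 h (0.49 ± 0.13, adjusted p = 0.0241). The arrays did not overlap, but all lie near or below the table median, where array signal is compressed, and leaving out wild-type array 2 or 3 or deficient array 1 or 2 ended the call (adjusted p = 0.0624 to 0.117). With only the compared groups in the fit, Eprs (adjusted p = 0.0506), Ddit3 (0.0714), Asns (0.0735) and Shmt1 (0.141) lost their 4 h calls. With the Gapdh 3' to 5' difference, a measure of RNA quality, as a covariate, Asns (0.0654) and Shmt1 (0.0929) lost theirs. Aldh18a1, of proline synthesis, changed by 0.21 ± 0.15 and was not called, nor were Cbs, Cth and Gpt2 (-0.08 to 0.07). A dimmer Gpt2 probe set, with a mean of 2.36, was higher in deficient cells (0.59, limma adjusted p = 0.00248 over all probe sets). The remaining Gpt2 probe set was not called (-0.07).

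**Figure D2:**
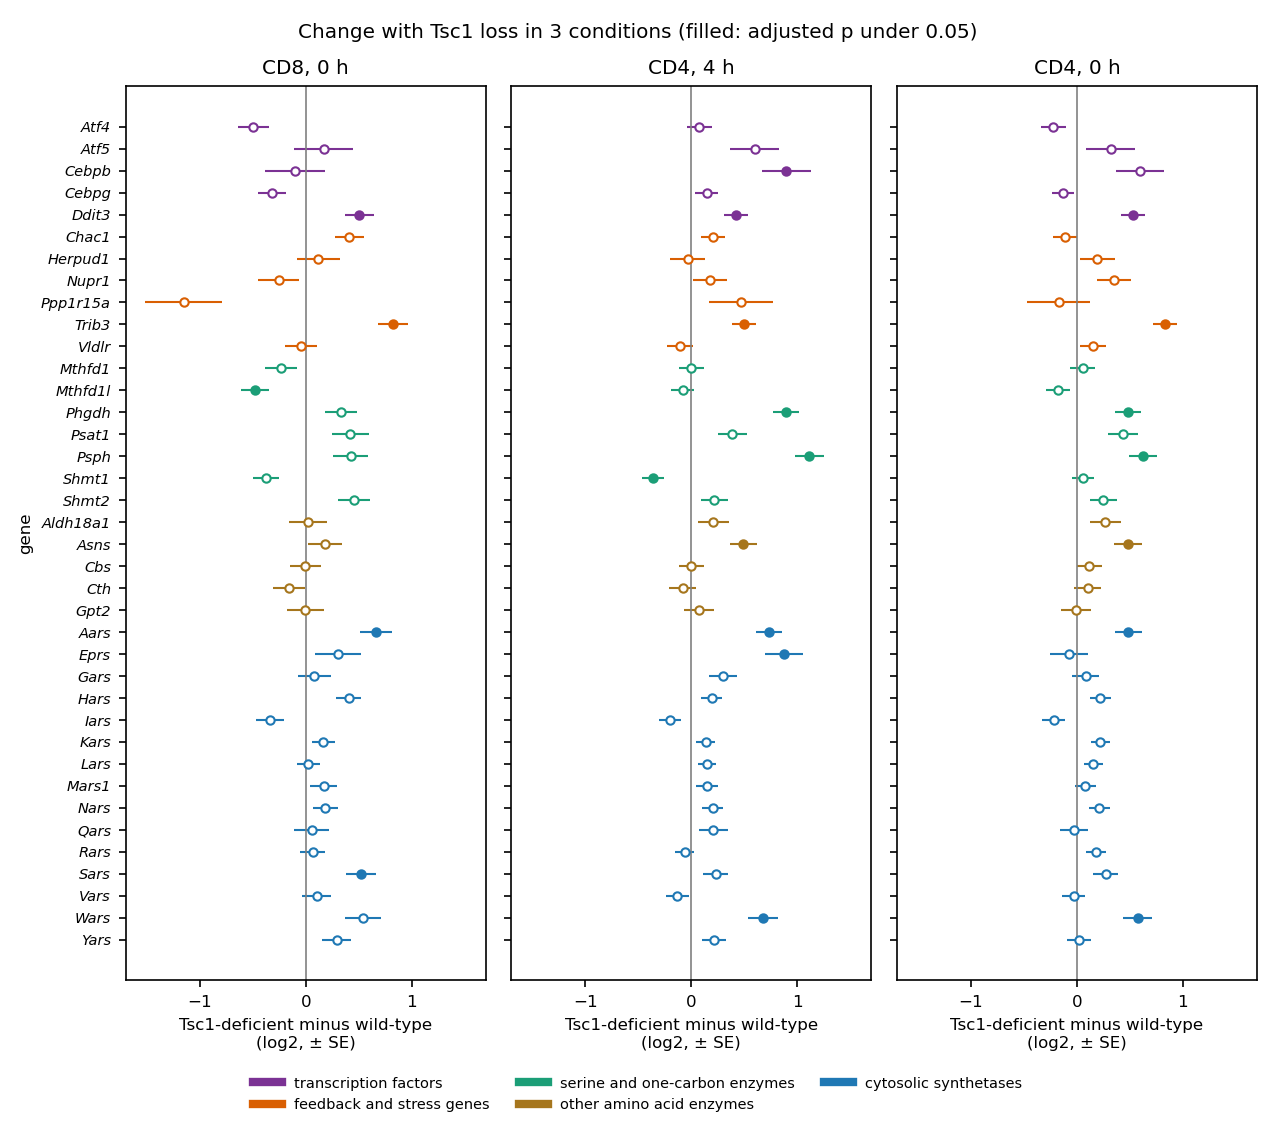
Change of each member between Tsc1-deficient and wild-type cells (log2, point) with its standard error (bar) in CD8 cells, CD4 cells at 4 h and unstimulated CD4 cells. Filled points passed an adjusted p under 0.05: 5 in CD8 cells, 10 at 4 h and 7 in unstimulated CD4 cells, with Ddit3, Trib3 and Aars filled in all 3 panels.

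In unstimulated CD4 cells the same direction held for 7 members, all of which were also higher at 4 h. The share of all genes called higher at both times was not computed. Of the 38 members 7 were called higher and 0 lower in deficient cells, against 3.96% higher and 1.87% lower of all genes (5.83% in all, and 9.9% of genes above the table median). At an unadjusted p under 0.05 the count of members was 14 in either direction, and the share of all genes at that threshold was not computed. The 7 were Trib3, Ddit3, Psph, Phgdh, Asns, Aars and Wars. The median change of the members was 0.17, and of all genes 0.01. The neutrophil mean was 4.46 to 6.35 in deficient cells against 3.31 to 4.3 in wild-type cells, with 1 of 8 genes called (Ngp, 2.64). Gzma (1.20) was also higher, with an NK mean of 3.88 to 4.13 in deficient cells against 3.29 to 3.59 in wild-type cells, as was the B cell gene Cd79b (0.63), with a B cell mean of 4.57 to 4.99 against 4.41 to 4.68. The CD8 lineage genes Cd8a (-0.84) and Runx3 (-0.55) were lower, the CD8 lineage mean being 7.04 to 7.17 in deficient cells against 7.46 to 7.96 in wild-type cells.

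Trib3 led at rest, with 5.42, 5.59 and 5.52 in deficient cells and 4.55, 4.68 and 4.81 in wild-type cells (0.83 ± 0.11, 1.78-fold, adjusted p = 0.000237). All 3 deficient arrays stood clear of the wild-type arrays. Psph read 8.24, 8.14 and 8.07 against 7.51, 7.55 and 7.52 (0.62 ± 0.14, adjusted p = 0.00991), and Phgdh read 7.67, 7.70 and 7.47 against 7.08, 7.24 and 7.08 (0.48 ± 0.12, adjusted p = 0.0297). Wild-type arrays of Psph were almost identical, and neither gene's groups overlapped. Psat1 changed by a similar 0.43 ± 0.14 but was not called (adjusted p = 0.0871).

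Ddit3 read 8.31, 8.41 and 8.14 in deficient cells and 7.99, 7.58 and 7.71 in wild-type cells without stimulation (0.53 ± 0.11, adjusted p = 0.00987), and Aars read 8.42, 8.46 and 8.29 against 8.13, 7.87 and 7.72 (0.49 ± 0.13, adjusted p = 0.0314). Neither gene's groups overlapped. Wars read 6.19, 6.73 and 6.30 against 5.93, 5.77 and 5.79 (0.57 ± 0.14, adjusted p = 0.0203), and Asns 3.25, 3.52 and 3.34 against 2.99, 2.61 and 3.07 (0.48 ± 0.13, adjusted p = 0.0378). Deficient array 2 was the highest of its group for both, and again no arrays overlapped. Eprs, which stood out at 4 h, did not differ detectably here, with 8.14, 8.24 and 8.17 in deficient cells and 8.44, 8.13 and 8.20 in wild-type cells (-0.07 ± 0.18, adjusted p = 0.908). Cebpb changed by 0.60 ± 0.23 (adjusted p = 0.169), with 1 wild-type array below the rest.

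Most of these resting calls sat close to the threshold. Only that of Trib3 held whichever single array was left out. Psph lost its call without deficient array 1 (adjusted p = 0.0532), Ddit3 without deficient array 2 (0.061) or wild-type array 2 (0.0641), Wars without wild-type array 2 or 3 or deficient array 2 (adjusted p = 0.0774 to 0.114), Aars without wild-type array 2 or 3 or deficient array 1 or 2 (0.106 to 0.155), Phgdh without wild-type array 1 or 3 or deficient array 1 or 2 (0.0997 to 0.121), and Asns without any array but wild-type array 3 (0.0591 to 0.197). Averaging the 3 Wars probe sets also ended its call (0.35, adjusted p = 0.21), and fitting only the compared groups ended that of Asns (0.0595).

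In CD8 cells, with 2 arrays a genotype, 4 members were called higher and 1 lower in deficient cells, against 3.64% and 2.18% of all genes (5.82% in all, and 9.75% of genes above the table median). The neutrophil mean was 4.65 to 5.68 in deficient cells against 3.44 to 4.43 in wild-type cells, with 0 of 8 genes called by limma (adjusted p = 0.101 to 0.826), and Gzma (1.36) and Cd79b (0.99) were called higher. The NK mean was 3.77 to 3.95 in deficient cells against 3.39 to 3.64 in wild-type cells, and the B cell mean 5.24 to 5.35 against 4.85 to 4.99. Trib3 read 4.95 and 4.51 in deficient cells and 3.98 and 3.84 in wild-type cells (0.82 ± 0.14, adjusted p = 0.00207). Aars read 8.32 and 8.16 against 7.49 and 7.66 (0.66 ± 0.16, adjusted p = 0.0182), and Ddit3 read 8.14 and 8.02 against 7.55 and 7.59 (0.51 ± 0.14, adjusted p = 0.0430). Both deficient arrays lay above both wild-type arrays for all 3 genes, which are the members called higher in every genotype comparison. The share of all genes called higher in every genotype comparison was not computed. Sars, for serine transfer RNA, read 9.82 and 9.90 against 9.26 and 9.42 (0.52 ± 0.14, adjusted p = 0.0374). Mthfd1l, the mitochondrial formate-releasing enzyme of one-carbon metabolism, read 8.17 and 7.81 in deficient cells and 8.57 and 8.37 in wild-type cells, the only member called lower here (-0.48 ± 0.13, adjusted p = 0.0430). Its groups did not overlap, although deficient array 2 accounted for much of the gap. A dimmer Iars probe set was lower as well (-0.62, limma adjusted p = 0.0384 over all probe sets). The Iars probe set used here was not called (-0.34).

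The CD8 calls rest on few arrays. Leaving out any 1 of the 4 CD8 arrays ended those of Ddit3 (adjusted p = 0.0871 to 0.218) and Sars (0.0749 to 0.26), leaving out any but deficient array 2 ended that of Aars (0.0541 to 0.167), and leaving out any but deficient array 1 ended that of Mthfd1l (0.0766 to 0.32). The Mthfd1l change was -0.30 without deficient array 2. The calls of Ddit3 and Mthfd1l also ended with all probe sets tested (adjusted p = 0.0536 for both) and with array weights (0.0842 and 0.0588). Fitted on the CD8 groups alone, limma called 0 members, and 269 genes in place of 995. Psph read 8.35 and 7.81 in deficient cells against 7.56 and 7.75 in wild-type cells (0.42 ± 0.17, adjusted p = 0.165), and Phgdh 8.08 and 7.92 against 7.70 and 7.63 (0.33 ± 0.15, adjusted p = 0.240). Both deficient arrays exceeded both wild-type arrays for these genes without a call. Ppp1r15a changed by -1.15 ± 0.36 (adjusted p = 0.0792), with 8.34 and 9.20 in deficient cells against 9.94 and 9.91 in wild-type cells. Wars had a change of 0.54 ± 0.17 (adjusted p = 0.0794) and Hars, for histidine, of 0.41 ± 0.12 (adjusted p = 0.0539).

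**Figure D3:**
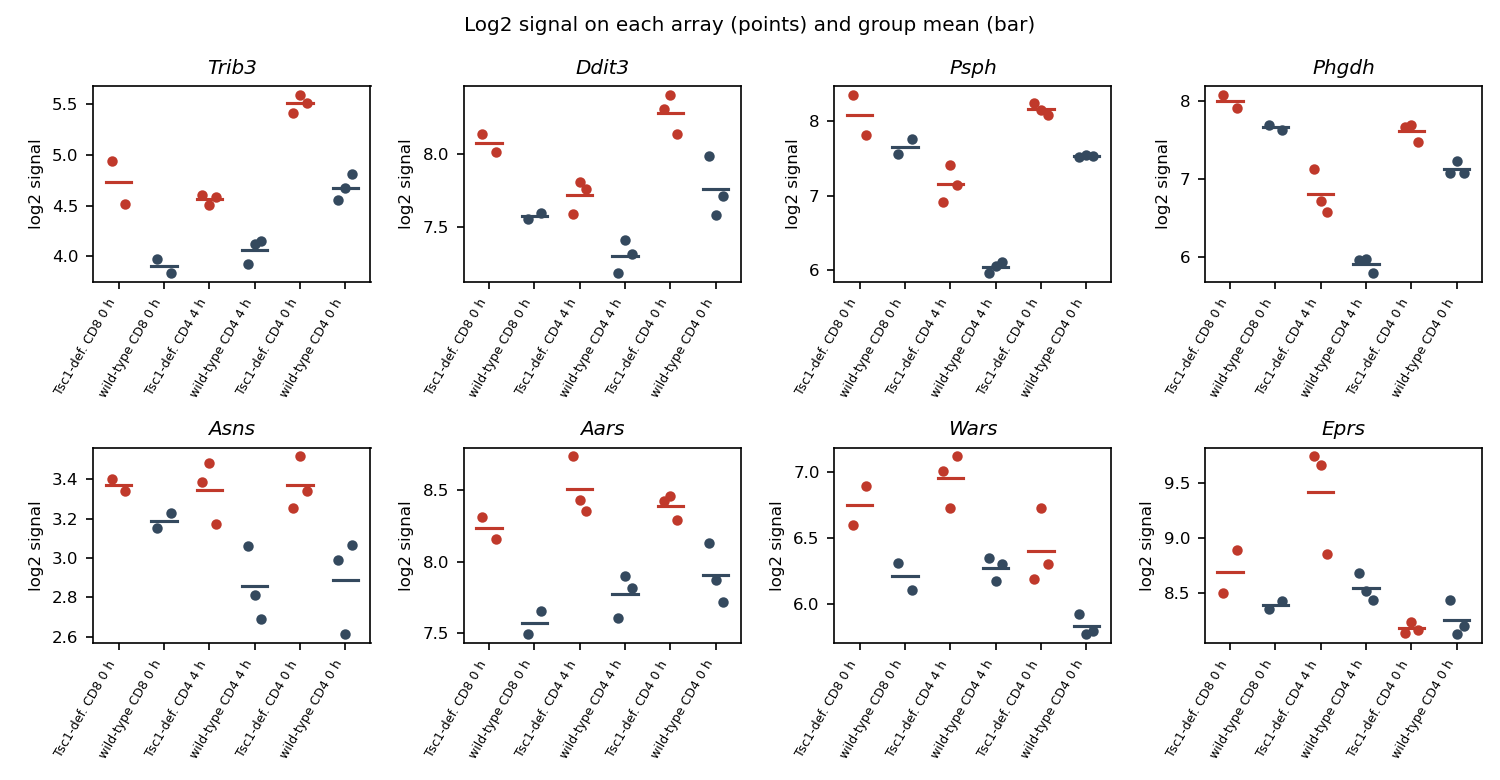
Log2 signal (vertical axis, its range set per gene) of 8 members called between genotypes on each array (points; red Tsc1-deficient, dark blue wild-type) with the group mean (bar). For 7 of the genes all red points lie above the dark blue points of the same lineage and time, and for Eprs they do so at 4 h and in CD8 cells but not in unstimulated CD4 cells. The 8 genes were picked from the called members. Shmt1 and Mthfd1l, called lower, are not shown. Cebpb and Sars, called higher, are not shown either, and their genotypes overlap in some comparisons. The share of all genes separated in this way was not computed.

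The genotype effects in CD8 and CD4 cells without stimulation were set against each other directly. limma called 0 of the 38 members different, against 0.117% of all genes (0.0702% more positive in CD8 cells and 0.0468% more negative). At an unadjusted p under 0.05 there were 3 members, and the share of all genes at that threshold was not computed. The smallest adjusted p was 0.499 for Chac1 (0.41 ± 0.14 in CD8 cells against -0.12 ± 0.11 in CD4 cells). The genes called in only 1 of these lineages are therefore not shown to differ between them: for Psph the CD8 effect minus the CD4 effect was -0.20 ± 0.21 and for Sars 0.25 ± 0.18.

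After stimulation for 4 h more members fell than rose. In Tsc1-deficient CD4 cells 17 of 38 members were called lower and 4 higher, against 21.5% lower and 13.8% higher of all genes (35.3% in all). In wild-type CD4 cells 19 were called lower and 5 higher, against 19.1% and 12.8% (31.9% in all). Members are bright genes, and of the 9354 genes above the table median 36.3% were lower and 22.7% higher in deficient cells, and 32.7% and 21.3% in wild-type cells. The 17 members lower in deficient cells were all lower in wild-type cells, and Atf5, Cebpg and Wars were higher in both. The share of all genes called the same way in both genotypes was not computed. The counts by role in both genotypes that follow therefore have no such share beside them. RMA brings the arrays to a common distribution, so a change shared by all transcripts of the stimulated cells cannot be seen.

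The transcription factors split. Atf5 read 6.15, 5.50 and 4.85 at 4 h against 4.12, 4.54 and 4.33 without stimulation in deficient cells (1.17 ± 0.23, adjusted p = 0.000511), and 4.83, 4.66 and 5.22 against 3.99, 4.16 and 3.89 in wild-type cells (0.89 ± 0.23, adjusted p = 0.00555). Cebpg, which pairs with ATF4, read 8.21, 8.34 and 8.37 against 6.93, 7.02 and 7.26 in deficient cells (1.24 ± 0.11, adjusted p = 7.06e-08) and 8.19, 8.19 and 8.11 against 7.09, 7.31 and 7.21 in wild-type cells (0.96 ± 0.11, adjusted p = 1.73e-06). Both genes were higher on every 4 h array than on any unstimulated array of the same genotype. Cebpb moved furthest the other way, with 6.37, 7.20 and 6.98 against 8.17, 9.01 and 8.80 in deficient cells (-1.81 ± 0.23, adjusted p = 6.34e-06) and 5.89, 5.84 and 6.12 against 7.66, 8.24 and 8.29 in wild-type cells (-2.11 ± 0.23, 4.33-fold lower, adjusted p = 1.38e-06). Ddit3 fell by 0.57 ± 0.11 in deficient cells and by 0.46 ± 0.11 in wild-type cells (adjusted p = 0.000624 and 0.00411). Atf4 was not called in either genotype (0.14 ± 0.12 and -0.16 ± 0.12).

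Among the feedback and stress genes 3 of 6 fell in both genotypes, and the other 3 are the dim genes Chac1, Nupr1 and Vldlr (limma adjusted p = 0.0608 to 0.870). Ppp1r15a read 8.62, 8.81 and 8.02 at 4 h against 9.06, 9.96 and 10.05 without stimulation in deficient cells (-1.20 ± 0.30, adjusted p = 0.00367). In wild-type cells it read 8.06, 7.99 and 7.997 against 9.17, 10.25 and 10.16 (-1.84 ± 0.30, 3.59-fold lower, adjusted p = 9.57e-05). The unstimulated array 1 was the lowest of its group in both genotypes, and the 4 h arrays lay below it. Trib3 fell by 0.94 ± 0.11 in deficient cells and by 0.61 ± 0.11 in wild-type cells (adjusted p = 3.70e-06 and 0.000395), to means of 4.57 and 4.07. Herpud1 read 6.94, 7.89 and 7.42 against 8.22, 8.35 and 8.27 in deficient cells (-0.87 ± 0.17, adjusted p = 0.000411) and 7.39, 7.54 and 7.41 against 8.16, 7.96 and 8.14 in wild-type cells (-0.64 ± 0.17, adjusted p = 0.00579), with no overlap in either.

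The serine and one-carbon enzymes had the lowest median change of the 5 roles, with 4 of 7 lower in both genotypes and medians of -0.81 in deficient cells and -1.05 in wild-type cells. Mthfd1, the cytosolic trifunctional folate enzyme, read 6.02, 6.48 and 5.99 at 4 h against 7.47, 7.69 and 7.65 without stimulation in deficient cells (-1.44 ± 0.12, adjusted p = 5.05e-08) and 6.22, 6.20 and 6.07 against 7.51, 7.55 and 7.58 in wild-type cells (-1.38 ± 0.12, adjusted p = 1.03e-07). Psph fell by 1.00 ± 0.14 in deficient cells (1.99-fold lower, adjusted p = 1.27e-05) and by 1.48 ± 0.14 in wild-type cells (2.80-fold lower, adjusted p = 1.67e-07). With the array values given above, the 4 h deficient arrays of Psph thus lay between the 4 h and the unstimulated wild-type arrays. Phgdh fell by 0.81 ± 0.12 and by 1.22 ± 0.12 (adjusted p = 5.09e-05 and 6.31e-07), with no overlap in either. Mthfd1l read 6.59, 6.84 and 6.78 against 7.72, 7.68 and 7.66 in deficient cells (-0.95 ± 0.11, adjusted p = 1.98e-06) and 6.95, 6.75 and 6.76 against 7.91, 7.89 and 7.80 in wild-type cells (-1.05 ± 0.11, adjusted p = 7.86e-07). All 4 h arrays of Mthfd1l were low, whichever the genotype. Psat1 and Shmt2 were not called in either genotype (-0.12 to 0.05). Shmt1 changed by 0.01 ± 0.10 in deficient cells and rose in wild-type cells, with 6.32, 6.49 and 6.62 at 4 h against 6.01, 6.04 and 6.10 without stimulation (0.43 ± 0.10, adjusted p = 0.00304). Another Shmt1 probe set rose in both, by 0.52 in deficient and 1.24 in wild-type cells (limma adjusted p = 0.0162 and 1e-05 over all probe sets). A further probe set rose in wild-type cells only (0.62, adjusted p = 0.00505), and the last was called in neither genotype (-0.03 and 0.34).

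**Figure D4:**
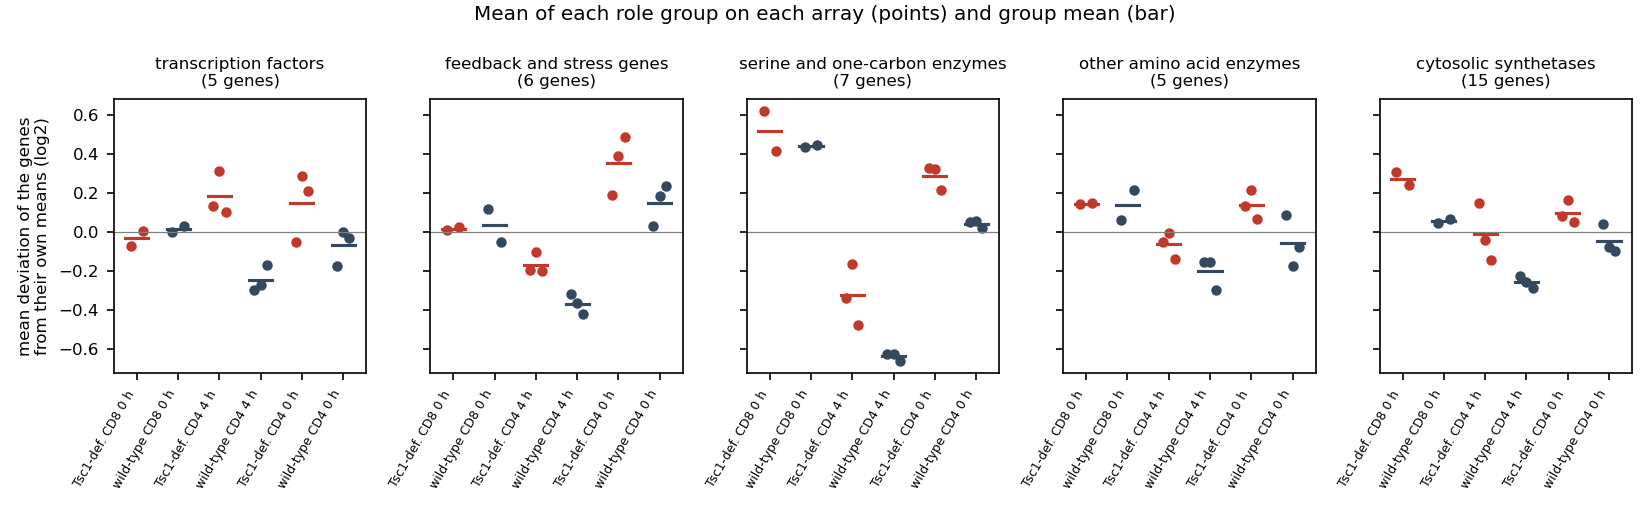
Mean over the genes of each role of their differences from their own 16-array means (log2, vertical axis) on each array (points; red Tsc1-deficient, dark blue wild-type) with group means (bars). The serine and one-carbon enzymes span the widest range and are lowest on the 4 h wild-type arrays (-0.62 to -0.66). They are highest on the CD8 arrays, with 0.41 and 0.62 in deficient cells and 0.43 and 0.44 in wild-type cells. The synthetases lie between -0.29 and 0.31.

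The synthetases split by amino acid. In both genotypes 7 of 15 fell (Sars, Yars, Vars, Lars, Mars1, Nars and Iars), while Wars rose. Another Nars probe set was called in neither deficient nor wild-type cells (-0.08 and 0.06, limma adjusted p = 0.712 and 0.79 over all probe sets). With all probe sets tested, the Iars call in deficient cells was lost (0.0543). Another Iars probe set fell in deficient cells (-0.44, 0.0158) but was not called in wild-type cells (-0.24, 0.217). Sars read 9.02, 8.60 and 8.47 at 4 h against 9.55, 9.56 and 9.51 without stimulation in deficient cells (-0.84 ± 0.11, adjusted p = 1.32e-05) and 8.51, 8.46 and 8.43 against 9.32, 9.26 and 9.23 in wild-type cells (-0.80 ± 0.11, adjusted p = 2.81e-05). Every 4 h array was below every unstimulated array. Yars, for tyrosine, read 6.48, 6.30 and 6.15 against 6.96, 7.06 and 6.82 in deficient cells (-0.64 ± 0.11, adjusted p = 0.000208) and 6.06, 6.33 and 5.91 against 6.93, 6.99 and 6.87 in wild-type cells (-0.83 ± 0.11, adjusted p = 1.60e-05). Vars, for valine, read 6.56, 6.33 and 6.27 against 6.93, 6.99 and 6.92 in deficient cells (-0.56 ± 0.11, adjusted p = 0.000501) and 6.62, 6.35 and 6.59 against 7.10, 6.89 and 6.95 in wild-type cells (-0.46 ± 0.11, adjusted p = 0.00315). The times did not overlap for either gene. Wars rose by 0.55 ± 0.14 and by 0.44 ± 0.14 (adjusted p = 0.00447 and 0.0201), the wild-type call being lost without wild-type 4 h array 1 or 3 or unstimulated array 2 or 3 (adjusted p = 0.0577 to 0.0722) and with its probe sets averaged (0.36, adjusted p = 0.083). Gars and Qars fell in wild-type cells (-0.38 and -0.49, adjusted p = 0.0318 and 0.00972), and Rars, for arginine, rose there (0.39 ± 0.09, adjusted p = 0.00306). On the probe sets used, none of these genes was called in deficient cells. Another Qars probe set fell in both genotypes (-0.31 in deficient and -0.36 in wild-type cells, limma adjusted p = 0.0363 and 0.02 over all probe sets). A dimmer one fell in wild-type cells only (-0.33, 0.0273, against -0.28, 0.0552). The dimmest Qars probe set rose in deficient cells (0.53, 0.0121). Hars, Kars and Aars were called in neither genotype (-0.13 to 0.24). Outside the synthetases, Aldh18a1 of proline synthesis read 5.31, 5.39 and 4.96 at 4 h against 6.17, 6.05 and 6.10 in deficient cells (-0.89 ± 0.15, adjusted p = 0.000106) and 4.89, 5.29 and 4.86 against 6.10, 5.74 and 5.67 in wild-type cells (-0.83 ± 0.15, adjusted p = 0.000247), the only 1 of the 5 other amino acid enzymes to be called.

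Eprs was the member with the most unequal response. In deficient cells it rose by 1.24 ± 0.18 (2.36-fold, adjusted p = 2.48e-05), and in wild-type cells the change was 0.29 ± 0.18 (adjusted p = 0.262). The difference of the responses was 0.95 ± 0.25 and did not pass over all genes (limma adjusted p = 0.0900, and 0.00237 to 0.2 over its alternatives). It passed without deficient 4 h array 3, the lowest of its group (1.23, adjusted p = 0.00237). On a second Eprs probe set the difference was 1.10 (adjusted p = 0.0171 over all probe sets), on another 1.08 (0.0973) and on the dimmest 0.44 (0.62).

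Over all members limma called 0 differences between the responses of the genotypes, against 1.2% of all genes (0.544% more positive in deficient cells and 0.661% more negative). The share of all genes with an unadjusted p under 0.05 was not computed, and 4 members had one. Apart from Eprs these had differences of 0.49 ± 0.19 for Psph (adjusted p = 0.300), 0.41 ± 0.18 for Phgdh (adjusted p = 0.358) and -0.42 ± 0.14 for Shmt1 (adjusted p = 0.213). The Psph difference was called (0.61, adjusted p = 0.0400) when the pair of arrays with the largest Gapdh 3' to 5' difference was left out, deficient 4 h array 1 and deficient CD8 array 2, whose differences were 0.956 and 0.642 against at most 0.404 on the others. Over the 38 members the responses had the same sign in 32 and a Pearson r of 0.918 between genotypes, a description across genes, which are not independent, measured on arrays of one normalization.

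**Figure D5:**
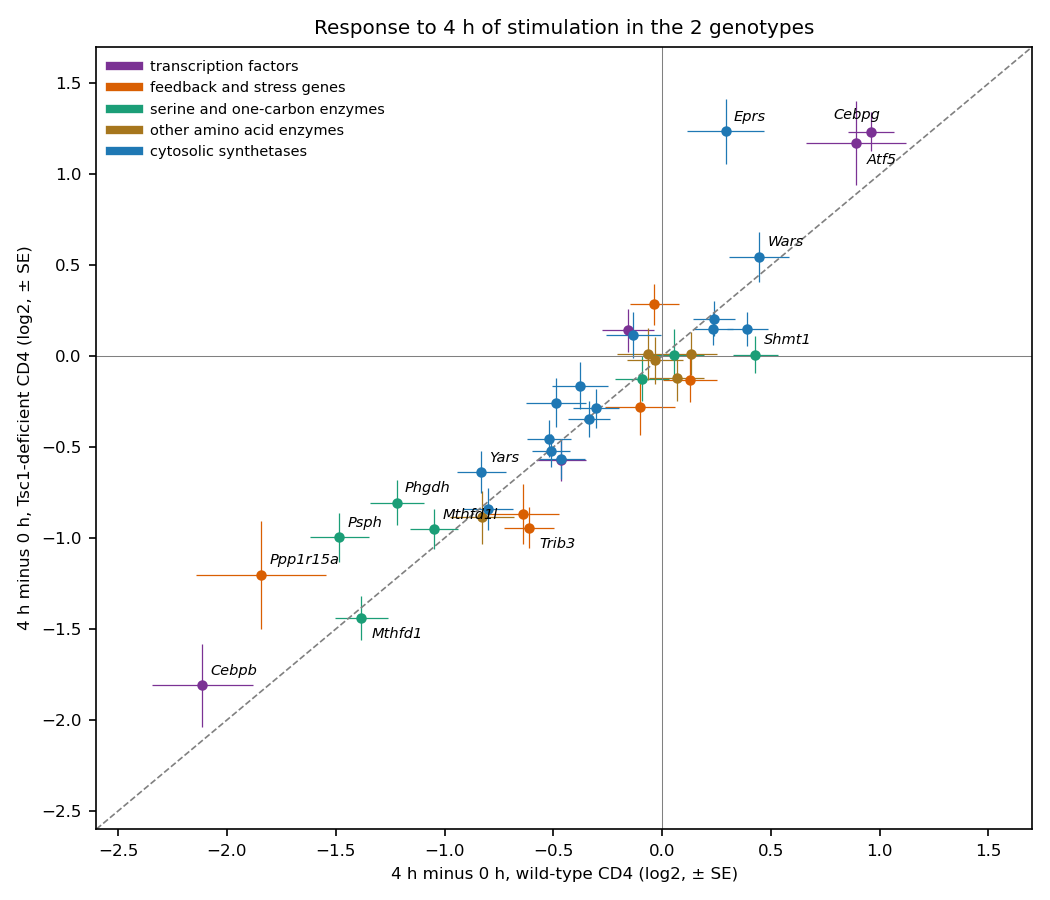
Change of each member after 4 h of stimulation in Tsc1-deficient CD4 cells (vertical, log2 ± SE) against that in wild-type CD4 cells (horizontal, log2 ± SE), coloured by role, with the line of equal response dashed. Most points follow the line, from Cebpb at -1.81 and -2.11 to Cebpg at 1.24 and 0.96, and Eprs lies furthest above it at 1.24 and 0.29.

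Between the lineages, 3 of 7 serine and one-carbon enzymes (Shmt2, Mthfd1l and Phgdh) were called higher in unstimulated wild-type CD8 cells than in wild-type CD4 cells. Of the 38 members 4 were called higher in CD8 cells and 1 lower, against 2.47% and 2.57% of all genes (5.04% in all, and 8.23% of genes above the table median). Shmt2, the mitochondrial serine hydroxymethyltransferase, read 7.30 and 7.31 in CD8 cells and 6.497, 6.68 and 6.42 in CD4 cells (0.77 ± 0.14, 1.71-fold, adjusted p = 0.00222). Of its dimmer probe sets one was called (0.65, limma adjusted p = 0.0105 over all probe sets) and the other was not (0.34, 0.345). Mthfd1l read 8.57 and 8.37 against 7.91, 7.89 and 7.80 (0.61 ± 0.12, adjusted p = 0.00592), and Phgdh 7.70 and 7.63 against 7.08, 7.24 and 7.08 (0.53 ± 0.14, adjusted p = 0.0344). No arrays of the lineages overlapped, and all 7 serine and one-carbon enzymes had a positive change (median 0.36). So did all 5 other amino acid enzymes (median 0.19), and 9193 of all 17097 genes (median 0.017). Vars, for valine, was the only synthetase called (0.46 ± 0.12, adjusted p = 0.0381). Trib3 was lower, with 3.98 and 3.84 in CD8 cells and 4.55, 4.68 and 4.81 in CD4 cells (-0.77 ± 0.13, adjusted p = 0.00112). Calls ended without CD8 array 1 for Mthfd1l (adjusted p = 0.128), without CD8 array 1 or CD4 array 2 or 3 for Vars (0.11 to 0.448), and without either CD8 array or CD4 array 1 or 3 for Phgdh (0.104 to 0.243). Those of Phgdh (0.0644) and Vars (0.0706) also ended with the Gapdh difference as a covariate, and that of Vars with only the compared groups in the fit (0.0829).

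Genes of neighbouring pathways were read in the same way. Their counts stand against 9.45% of all genes called between genotypes at 4 h, 5.83% in unstimulated CD4 cells and 5.82% in CD8 cells, and against 16.2%, 9.9% and 9.75% of genes above the table median. Of 6 further ATF4 targets measured, Sesn2, which restrains mTORC1 when leucine is scarce, was higher in deficient cells in all 3 conditions (0.75 ± 0.16 at 4 h, 0.59 ± 0.16 in unstimulated CD4 cells and 0.80 ± 0.19 in CD8 cells, adjusted p = 0.00533, 0.0330 and 0.0202), and it rose with stimulation in both genotypes. Ddit4, another mTORC1 inhibitor, was higher at 4 h (1.21 ± 0.24, adjusted p = 0.00368) and fell by 2.46 with stimulation in deficient cells and by 3.21 in wild-type cells. Of 9 amino acid transporters Slc3a2, the heavy chain of several exchangers, was higher in deficient cells at 4 h (0.56 ± 0.11, adjusted p = 0.00283), Slc7a3 was lower at 4 h, and Slc43a1 was higher in CD8 cells. The cystine carrier Slc7a11 was not called (-0.16 at 4 h).

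Of 12 targets of the unfolded protein response factors ATF6 and XBP1, 2 were higher in deficient cells at 4 h (Calr and Creld2), 2 in unstimulated CD4 cells (Sdf2l1 and Creld2) and 1 in CD8 cells (Sdf2l1). Of 11 genes of eIF2 kinases and their control, 2 were called higher at 4 h, 1 in unstimulated CD4 cells and 1 in CD8 cells, where 1 was lower. The kinase Eif2ak2 was higher at 4 h (1.06 ± 0.24, adjusted p = 0.00931) and Eif2ak4, the kinase that senses uncharged transfer RNA, was lower in CD8 cells (-0.98 ± 0.21, adjusted p = 0.0102). Of 15 mitochondrial synthetases Ears2 was lower in deficient cells at 4 h (-0.53 ± 0.10, adjusted p = 0.00163), Ears2 and Mars2 were lower in CD8 cells, and the others were not called between genotypes. With stimulation 9 of these 15 fell in deficient cells and 8 in wild-type cells, against 21.5% and 19.1% lower of all genes, and 36.3% and 32.7% of those above the table median. Of 7 other folate genes Aldh1l1, a formyltetrahydrofolate dehydrogenase, was higher in deficient cells without stimulation, by 1.75 ± 0.14 in CD4 cells and 1.93 ± 0.17 in CD8 cells (adjusted p = 8.02e-07 and 3.91e-06), and was not called at 4 h. Tyms, thymidylate synthase, was the other folate gene called, higher by 0.65 ± 0.16 in unstimulated CD4 cells and by 1.14 ± 0.20 in CD8 cells (adjusted p = 0.0232 and 0.00245).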

How the data were processed

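RNA from 16 sorted samples was hybridised to single-colour Affymetrix arrays. The deposited values are log2 signals that the authors made by RMA in Partek 6.5, per the submitters' processing notes, and they were used as deposited. Of 45141 probe sets, 28898 name 1 gene in the platform annotation. No genome build is stated for the arrays. Groups follow the labels' titles and genotype fields.

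One linear model with a mean for each of 6 groups was fitted to 17097 genes with limma 3.58.1 in R 4.3.3 (10 residual degrees of freedom, prior SD 0.146), and p-values were adjusted by Benjamini-Hochberg within each comparison. Precision is limited by the number of arrays. The pipeline was tested on simulated data. The members, role groups, related lists, named genes and tests were chosen with earlier results of these data known. Values on every array are given for Atf4 and for up to 4 members per role with the largest changes among those called by genotype or by stimulation. They are given as well for Shmt2, called between the lineages, and for a few uncalled changes chosen after their values were seen. Each count of members called was recomputed with probe sets averaged or all tested, without dim genes, after renewed quantile normalization or centring on the median, with a robust trended prior, with array weights, with the Gapdh 3' to 5' difference as a covariate or its 2 highest arrays left out, on the compared groups only, with a change of at least 1 required, and without each array of the compared groups. The stimulation comparisons and their difference were also fitted with adjacent arrays as blocks. Single genes were followed through the alternatives only for Atf4 and the up to 4 members per role, not for other members or related genes. Promoter windows are from RefSeq (GRCm38.p6).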

Additional observations from a re-analysis of the deposited data

How the results depend on the processing

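Gene by gene, the alternatives were run for Atf4 and the members picked by role for their called changes, and so not for Shmt2. No called value of these genes changed direction. For Tsc1-deficient against wild-type CD8 cells (5 called), 3 were called with all probe sets tested, 3 with array weights, 9 with the Gapdh covariate and 0 with only the compared groups in the fit. At 4 h (10 called) 6 were called with only the compared groups. With a change of at least 1 required, the counts were 0 in CD8 cells, 1 at 4 h, 0 in unstimulated CD4 cells (7 called), 6 for stimulation of deficient cells (21 called), 6 for stimulation of wild-type cells (24 called) and 0 for wild-type CD8 against CD4 cells (5 called). For the difference of the responses (0 called) 1 was called without the 2 arrays of highest Gapdh 3' to 5' difference. With each array left out in turn, counts ranged from 1 to 5 in CD8 cells, 7 to 12 at 4 h, 2 to 6 in unstimulated CD4 cells, 19 to 22 and 21 to 23 for stimulation of deficient and wild-type cells, 0 to 1 for the difference of the responses, 2 to 4 between the lineages and 0 to 0 for the difference of genotype effects. Of the called values of the genes checked one by one, 4 of 10 at 4 h, 1 of 7 in unstimulated CD4 cells, 0 of 5 in CD8 cells, 17 of 17 and 16 of 17 for stimulation of deficient and wild-type cells and 1 of 4 between lineages kept their calls under all alternatives other than the required change of at least 1, which was applied to the counts alone. The labels give no replicate numbers. With unstimulated and 4 h CD4 arrays of adjacent title codes as a block, in place of no pairing, 20 members were called for stimulation of deficient cells, 23 for wild-type cells and 0 for the difference of the responses; whether adjacent codes mark shared mice is not stated. The remaining limits are the small number of arrays, dim probe sets for 7 members and a group size of 2 in CD8 cells.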
